A study of Rattus norvegicus with 8 samples.

Results

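Transient receptor potential (TRP) channel genes that have been linked to the sensing of plant terpenes, *Trpv1*, *Trpv2*, *Trpv4*, *Trpv6*, *Trpm8*, *Trpa1* and *Trpc6*, were followed in liver, spleen and small intestine of rats given lavender oil (LO). They were chosen by their RefSeq identifiers, without a cut-off on their values but with earlier results of these data known. The identifiers were NM_031982, NM_017207, NM_023970, NM_053686, NM_134371, NM_207608 and NM_053559 in the order given. They were 7 of 36958 identifiers of the array design, and each had 1 probe, out of 41012 probes in all. The probe of *Trpv1* was printed 10 times on every array and the others once, so that the genes took up 16 of 43379 features.

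The rats were 12 males, 7 weeks old at purchase. The growth protocol in the labels calls them F334 rats, and the strain field calls them Wistar. Per treatment there were 6 rats. The treated rats received LO from *Lavandula angustifolia* at 5 mg/kg in 10% ethanol, and the control rats received 10% ethanol only (0 mg/kg), both into the stomach once daily for 13 days, so that ethanol was common to both treatments. The labels put the dissection 14 days after treatment, with the intestine cut about 20 cm below the duodenum. RNA of the rats of a treatment was pooled before it was labelled, and 8 arrays with 2 dyes were hybridized, each with a control pool and an LO pool: 2 arrays for the intestine, 2 for the spleen and 2 for either liver pool (pool 1 and pool 2). On array 1 of each pair LO carried Cy5 and control Cy3, and on array 2 the dyes were swapped. The arrays of a pair hold the same RNA and count as 1 replicate, no value here carries the spread between single rats, and how the liver pools differ is not stated in the sources used here.

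TRP channels are cation channels in the cell membrane, many of which open in response to heat, cold, stretch or small lipophilic molecules and let calcium or sodium into the cell. Terpenes of aromatic plants, such as menthol, camphor, thymol and linalool, are known to act on some of them, mostly as studied in sensory neurons. *Trpv1* encodes the receptor of capsaicin and noxious heat, *Trpm8* the receptor of menthol and cold, and *Trpa1* the receptor of mustard oil and other irritants. *Trpv2* is expressed in many immune cells, and *Trpv4* responds to warmth and cell swelling. *Trpv6* encodes the calcium-selective channel of the enterocyte brush border, and *Trpc6* a channel gated by diacylglycerol and opened by hyperforin of St. John's wort.

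By their medians, marker genes went with the tissue labels. Over 9 probes of 6 hepatocyte marker genes, the median difference of the log2 control level between small intestine and liver was -12.20. Of these probes 8 were called, and that of *Apoa1* was not (0.63). Over 3 enterocyte marker probes the median difference between small intestine and spleen was 13.16. Over 3 lymphoid marker probes it was -2.43, with 1 called. On the 8 arrays, 44.3% to 64.7% of features were well above background in Cy3 and Cy5 alike. This flag of the scanner software is stricter than its flag for a positive and significant signal. Across probes, log2 LO/control on array 1 and array 2 of a pair correlated at -0.65 (spleen), -0.68 (small intestine), -0.75 (liver pool 1) and -0.74 (liver pool 2). The sign of a single-array ratio thus tended to go with the dye, and a shift that follows the dye cancels in the mean over a pair.

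Of the 7 genes, 3 were well above background in every channel of the small intestine, 2 in those of the spleen and 1 in those of the liver. Of all probes, 55.6% were so for the small intestine, 55.6% for the spleen and 39.8% for the liver. *Trpv4* was well above background in 16 of 16 channels, *Trpv6* in 10, *Trpv2* in 8, *Trpv1* in 4, *Trpc6* in 1, *Trpm8* in 1 and *Trpa1* in 0. A signal below this flag can still be positive and significant by the weaker flag. That held for *Trpm8* and *Trpa1* in 4 of 4 channels of the small intestine, but for *Trpa1* in 0 of 4 of the spleen. Such dim signals are taken here as upper bounds only. In whole tissue a low signal cannot tell a few cells with much RNA from many cells with little.

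**Figure D1:**
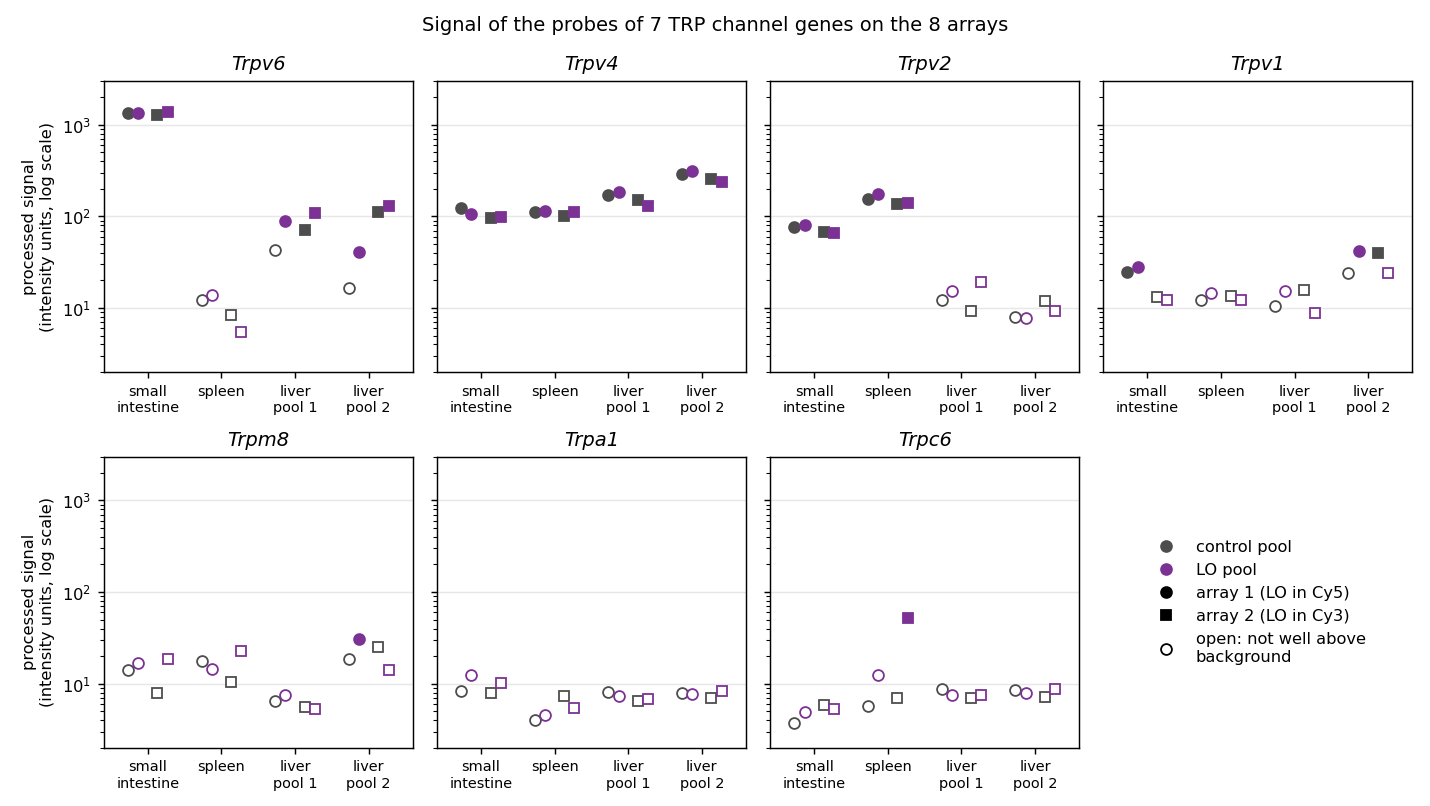
Processed signal (background-subtracted and dye-normalized intensity, log scale) of the control pool (grey) and the LO pool (purple) on array 1 (circles) and array 2 (squares) of each pair; open symbols were not well above background. *Trpv4* is filled in every group, *Trpv6* is brightest in the small intestine at 1292 to 1385, and *Trpa1* is open throughout.

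*Trpv6* was brightest in the small intestine. In the small intestine its control signal was 1346 on array 1 and 1292 on array 2, and its LO signal 1331 and 1385. In the spleen the 4 channels lay between 5.40 and 13.9, and none was well above background. In the liver the control signal was 42.6 and 70.7 in pool 1, and 16.7 and 111 in pool 2. The groups did not overlap, and every small intestine channel was above every liver channel. The liver control values also differed by dye, since the control pool was well above background in Cy5 on both pools and in Cy3 on neither.

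On the log2 scale after normalization between arrays, the control level of *Trpv6* was 10.08 in the small intestine (1 pool), 5.91 ± 0.32 (SD, 2 pools) in the liver and 3.27 in the spleen (1 pool). The difference between small intestine and liver was 4.17 (SE 0.44), an 18.0-fold difference with an adjusted p of 0.0055 in limma. The liver control was well above background on only 2 of 4 arrays, so that the 18.0-fold is not an exact size. The fitted difference was 6.81 for small intestine minus spleen (adjusted p = 0.0048 in limma) and -2.64 for spleen minus liver (adjusted p = 0.014). As a fold over the spleen, which was not well above background, this is at least 58.5 for the small intestine, a bound without a test of its own. For the liver the same calculation gave 3.24. That value is not a bound, because the liver control was well above background on only 2 of 4 arrays. These sizes hold for the processed signals only: with normexp background correction and loess the log2 difference was 3.38 for small intestine minus spleen, -0.78 for spleen minus liver and 2.60 for small intestine minus liver, each still called. Without replicate 2, the call against the spleen was lost for the small intestine (difference 6.54, adjusted p = 0.053) and for the liver (spleen minus liver -1.55, adjusted p = 0.24).

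Under LO, *Trpv6* of the small intestine had a log2 LO/control of -0.02 on array 1 and 0.10 on array 2, and its LO and control signals overlapped. The fitted fold was 1.03, with a 95% interval from 0.822 to 1.29, in the tissue where the probe was measured best. In the liver the LO signal was above the control signal on 4 of 4 arrays. The LO signals were 89.7 and 109 in pool 1, against control signals of 42.6 and 70.7, which gave log2 ratios of 1.07 and 0.62. In pool 2 they were 40.8 and 131, against 16.7 and 111, with log2 ratios of 1.29 and 0.24.

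*Trpv6* was thus higher in LO in both dye orientations and in both liver pools, and the larger ratio of each pool was the one in which the control carried Cy3 and was not well above background. The error model of the scanner software, which holds the error of a single array, gave those ratios P values of 0.00114 and 0.0171 in pool 1 and 0.0453 and 0.329 in pool 2. The mean over both pools was 0.81 (SE 0.07) on the log2 scale, or 1.75-fold with a 95% interval from 1.49 to 2.05. This did not pass the threshold over all probes (unadjusted p = 0.0019 and adjusted p = 0.73 in limma). The SE rests on the pair means of the pools, 0.85 and 0.77, which lay much closer together than the arrays within a pair. The value was 0.43 without replicate 1 and 1.18 without replicate 2, with adjusted p of 0.23 and 0.069. With normexp background correction and loess it was 0.24, with an adjusted p of 0.037.

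The LO effect on *Trpv6* differed by -1.03 (SE 0.12) between spleen and liver and by -0.76 (SE 0.12) between small intestine and liver on the log2 scale, lower than the liver in both, but neither difference passed the test over all probes (adjusted p = 0.99995 and 0.999 in limma). In the spleen the log2 ratios were 0.17 and -0.63, both between signals below the flag. *S100g*, the calcium-binding protein that carries calcium from *Trpv6* through the enterocyte, had log2 LO/control of -0.13 in the liver. The 3 enterocyte marker probes lay between 0.10 and 0.49 there, with none called. The 0.49 was that of *Alpi*, well above background in 0 of 8 liver channels. *Fabp2* and *Apoa4*, well above background in 8 of 8, gave 0.11 and 0.10. The part of these genes in the *Trpv6* value was not tested.

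**Figure D2:**
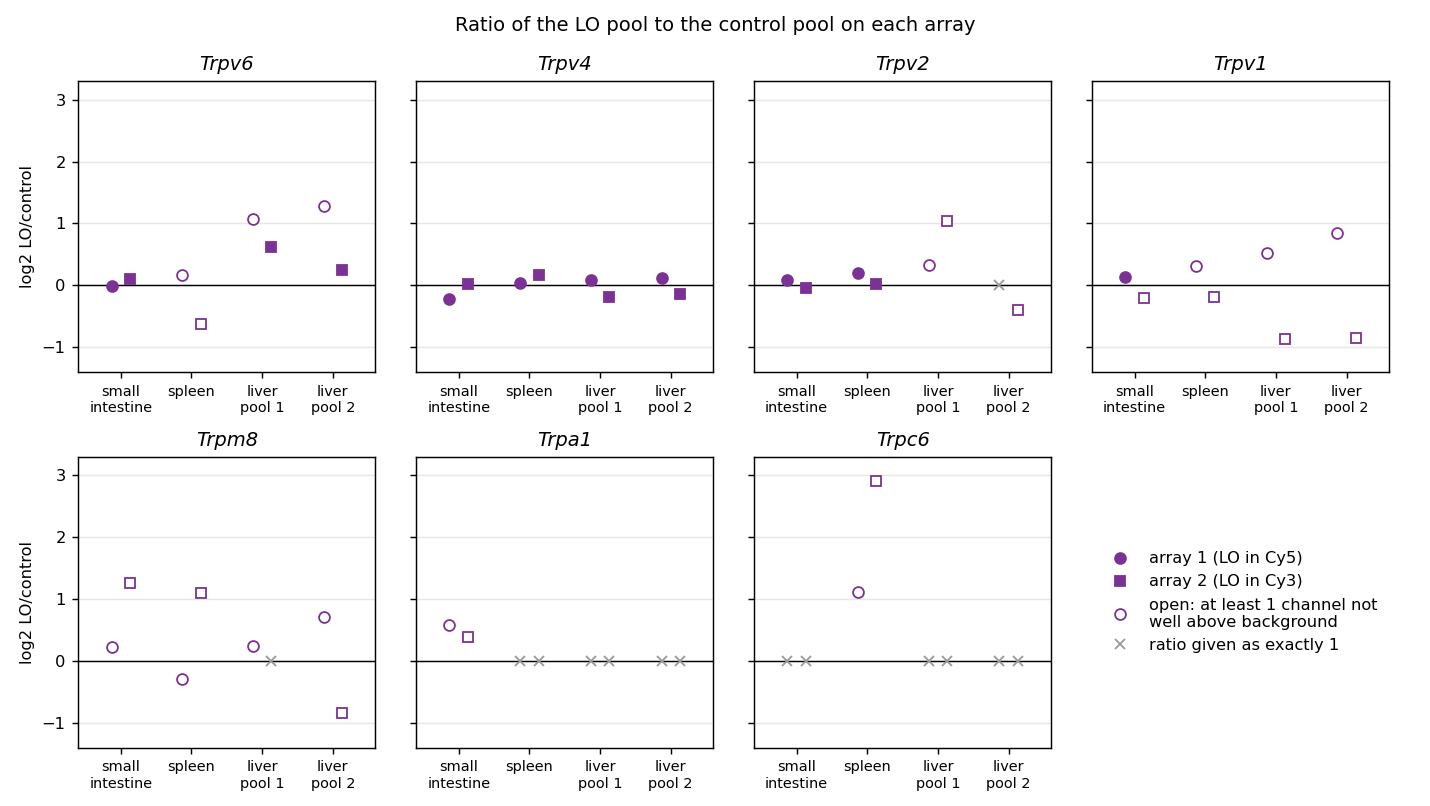
Log2 LO/control on array 1 (circles, LO in Cy5) and array 2 (squares, LO in Cy3) of each pair of pools; open symbols have at least 1 channel not well above background and grey crosses mark ratios given as exactly 1. *Trpv6* in the liver lies above 0 on 4 of 4 arrays, *Trpv1* changes sign with the dye in each pair, and *Trpc6* has ratios in the spleen only.

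*Trpv4*, the swelling and warmth channel, was the only one of the 7 genes seen in all channels. Its control signal was 125 and 97.0 for the small intestine and 112 and 101 for the spleen. In the liver it was 173 and 149 in pool 1 and 288 and 258 in pool 2. The liver was the brightest tissue and its pools did not overlap with each other.

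The LO signals of *Trpv4* ran beside these values, at 107 and 99.0 for the small intestine, 115 and 113 for the spleen, 183 and 131 for liver pool 1 and 312 and 235 for liver pool 2. The fitted log2 LO/control was -0.10 (SE 0.09) for the small intestine, 0.10 (SE 0.09) for the spleen and -0.03 (SE 0.07) for the liver. The 95% intervals of the fold ran from 0.755 to 1.16, from 0.865 to 1.33 and from 0.840 to 1.14. The liver interval was the narrowest of the 4 genes tested there, and none of the 3 values passed the test.

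The control level of *Trpv4* was 6.56 for the small intestine, 6.30 for the spleen and 8.09 ± 0.62 (SD, 2 pools) for the liver. The small intestine and the spleen, neighbours in this order, did not differ beyond their error (difference 0.26, SE 0.61). The liver was the highest, with a difference of -1.54 for small intestine minus liver (adjusted p = 0.10 in limma) and of -1.80 for spleen minus liver (adjusted p = 0.058), and neither was called. With the median of each array subtracted in place of the quantile normalization, both were called, at adjusted p of 0.0496 and 0.018.

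*Trpv2*, which is known from macrophages and lymphocytes, was brightest in the spleen. Its control signal was 153 and 136 there, 76.2 and 67.4 in the small intestine and between 8.04 and 12.1 on the 4 liver arrays. The spleen, small intestine and liver values did not overlap, and no liver channel was well above background. The fitted log2 difference was 3.34 for spleen minus liver (adjusted p = 0.0099 in limma) and 2.59 for small intestine minus liver (adjusted p = 0.024). As folds over the dim liver these are at least 3.29 for the spleen and at least 1.94 for the small intestine, bounds without a test of their own. The small intestine minus the spleen was -0.76 (SE 0.55) on the log2 scale, which was not called (adjusted p = 0.45). The call of small intestine over liver was lost without replicate 2 (2.63, adjusted p = 0.082), in the LO channels (2.37, adjusted p = 0.090) and with normexp and loess (0.48, adjusted p = 0.13). With normexp and loess spleen minus liver was 0.84, still called but smaller than the bound from the processed signals.

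Under LO the spleen gave *Trpv2* signals of 176 and 138, and the small intestine 81.1 and 65.5. The log2 ratios were 0.20 and 0.03 for the spleen, and 0.09 and -0.04 for the small intestine. The fitted folds were 1.08 (95% interval 0.741 to 1.58) and 1.02 (0.696 to 1.48), and neither was called. The macrophage markers in the spleen had a median log2 LO/control of 0.04 and the lymphoid markers one of -0.01.

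In the liver, *Trpv2* signals of 7.84 to 19.1 gave log2 ratios of 0.33 and 1.05 in pool 1. In pool 2 array 1 carried a ratio of exactly 1, which the software writes where neither signal is measurable, and array 2 a log2 ratio of -0.39. The pair with the missing ratio was dropped from the fit, so that the liver value of 0.69 (SE 0.11) is that of pool 1 alone. The value was not called. *Trpv2* thus had no residual degree of freedom, and its SE and intervals in every tissue rest on the spread of other probes, not on its own. With ratios of exactly 1 kept the liver value was 0.25. These are ratios of signals below the flag, and the single ratio of pool 2 went against those of pool 1.

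*Trpv1*, the capsaicin receptor, was at the edge of detection. Over its 10 copies the mean control signal was 25.0 ± 7.90 (SD over copies) and 13.0 ± 3.02 in the small intestine. In the spleen it was 12.1 ± 7.88 and 13.7 ± 3.98. In the liver it was 10.5 ± 4.10 and 15.7 ± 3.87 in pool 1, and 24.2 ± 11.2 and 39.5 ± 9.05 in pool 2. More than 50% of the copies were well above background in Cy3 and Cy5 on small intestine array 1 and in the Cy5 channel on both arrays of liver pool 2.

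The *Trpv1* ratio followed the dye. Log2 LO/control was 0.14 and -0.21 for the small intestine, 0.31 and -0.18 for the spleen, 0.52 and -0.87 for liver pool 1 and 0.84 and -0.85 for liver pool 2. Turned to Cy5 over Cy3, 8 of 8 arrays were above 0, from 0.14 to 0.87. The pair means were -0.03, 0.07, -0.15 and -0.0027, closer to 0 than the 2 arrays they come from in 4 of 4 pairs. A copy on array 1 of liver pool 1 with a ratio of exactly 1 was left out of its pair mean.

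**Figure D3:**
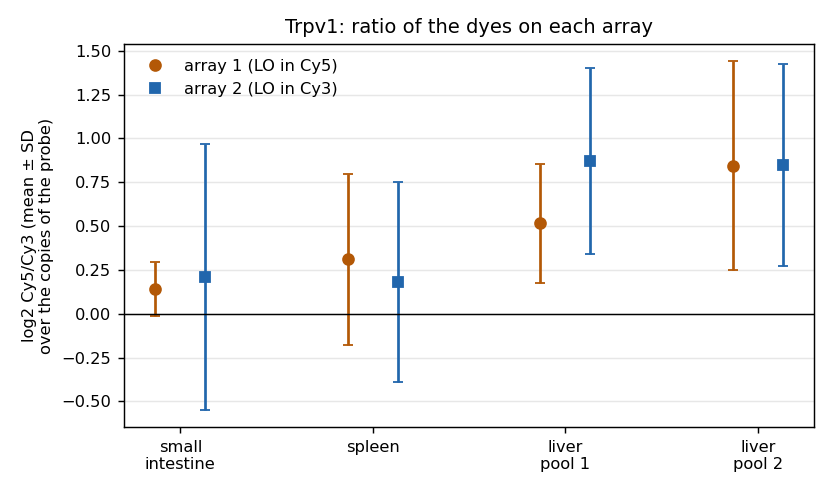
Log2 Cy5/Cy3 of *Trpv1* on each array, as the mean and SD over the copies of its probe that were not marked as outliers (9 or 10), with LO in Cy5 on array 1 (orange) and in Cy3 on array 2 (blue). All 8 means are above 0, whichever pool carried Cy5, and they are largest in the liver.

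From the pair means, the LO effect on *Trpv1* was -0.03 (SE 0.11) for the small intestine, 0.07 (SE 0.11) for the spleen and -0.07 (SE 0.08) for the liver. The 95% intervals of the fold ran from 0.759 to 1.26, from 0.813 to 1.35 and from 0.795 to 1.14. Without replicate 2, with LO in Cy5 on every array, the liver value was 0.71, and without replicate 1, with LO in Cy3 on every array, it was -0.86. The control level was 4.02 for the small intestine, 3.53 for the spleen and 4.42 ± 0.84 (SD, 2 pools) for the liver, and no pair of tissues was called.

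**Figure D4:**
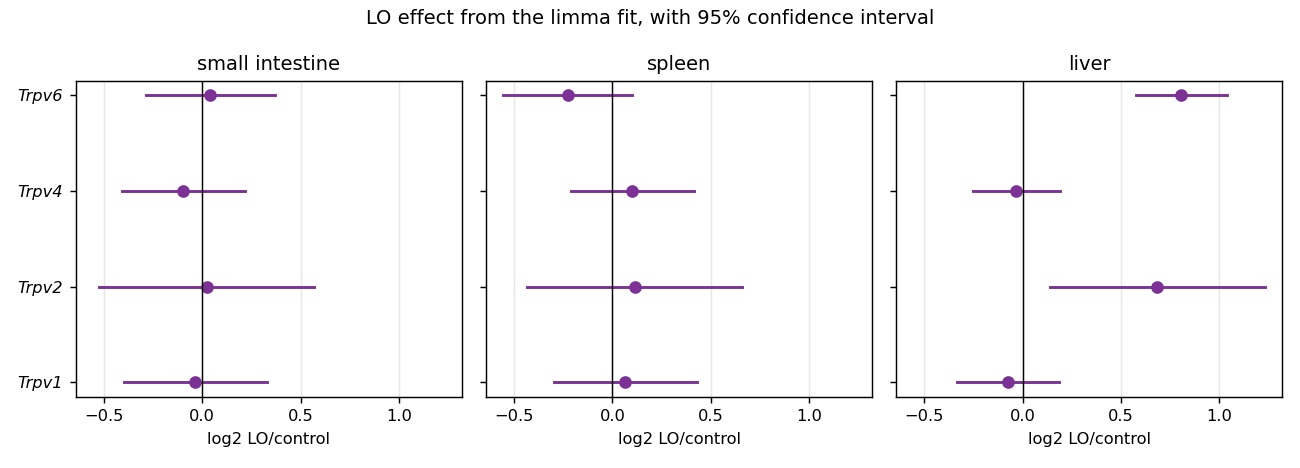
Log2 LO/control of the 4 genes that entered the limma fit, with 95% confidence intervals (points and bars), with a panel for each tissue. The interval lies above 0 for *Trpv6* and *Trpv2* in the liver only, neither with an adjusted p below 0.05. The *Trpv2* value there is from liver pool 1 alone, and all *Trpv2* intervals rest on the spread of other probes.

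*Trpm8*, the menthol and cold receptor, was well above background in 1 of 16 channels, that of LO on array 1 of liver pool 2 (30.7). Elsewhere its signals lay between 5.35 and 25.3. Log2 LO/control was 0.23 and 1.25 for the small intestine, -0.29 and 1.104 for the spleen, and 0.72 and -0.84 for liver pool 2. Liver pool 1 gave 0.25 on array 1 and a ratio of exactly 1 on array 2. The arrays of a pair had opposite signs for the spleen and for liver pool 2. In the fit without the filter on dim probes the values were 0.74 for the small intestine, 0.41 for the spleen and -0.06 for the liver, there from pool 2 alone, with none called.

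*Trpa1*, the irritant receptor, was not well above background in any channel, and its signals ran from 3.98 to 12.4. Its ratios were exactly 1 on both spleen arrays and on the 4 liver arrays. In the small intestine the LO signals of 12.4 and 10.3 stood against control signals of 8.29 and 7.87, with log2 ratios of 0.58 and 0.39 and error-model P values of 0.485 and 0.752. A change of *Trpm8* or *Trpa1* was not measurable at these signals. *Trpm8*, *Trpa1* and *Trpc6* did not pass the filter on dim probes, which asks for a channel well above background on at least 2 arrays.

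*Trpc6*, the diacylglycerol-gated channel, had measurable ratios in the spleen only. Its control signal was 5.71 on array 1 and 6.89 on array 2 of the spleen, and its LO signal 12.4 and 52.0. The LO channel of array 2 was the only one of the 16 that was well above background. In the small intestine and the liver the signals lay between 3.69 and 8.78, and the ratio was exactly 1 on all 6 arrays.

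The spleen ratios of *Trpc6* were 1.11 on array 1 and 2.92 on array 2 on the log2 scale, higher in LO whichever dye it carried. The error-model P was 0.302 on array 1 and 2.89e-05 on array 2. The control signals were below the flag on both arrays, so that these ratios hold no measured size of a difference. In the fit without the filter on dim probes their mean was not called (adjusted p = 0.999997 in limma). The study singled out *Trpc6* on these samples, so that its direction here is not independent evidence. In the same spleen pools, 8 of 8 tested probes of hepatocyte markers were higher in LO, by 0.38 to 0.65 on the log2 scale with unadjusted p below 0.05 and none called after adjustment, against 2.29% of all probes tested. The median log2 control level of the 9 probes of this list was 5.09 in the spleen and 17.21 in the liver. *Trpc6* itself was well above background in none of the 8 liver channels; the part of these markers in its value was not tested.

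Over the genes, none of the 4 tested passed an adjusted p of 0.05 for LO in any of the tissues, and neither did any other probe (0.0% in each tissue). At an unadjusted p below 0.05 the counts were 0 of 4 for the small intestine (3.44% of all probes), 0 of 4 for the spleen (3.78%) and 2 of 4 for the liver (6.79%), *Trpv6* and *Trpv2*. The median log2 LO/control of the 4 genes was -0.0052, 0.08 and 0.33 by tissue in the same order, against 0.00075, -0.0069 and -0.0016 over all probes tested. The liver median lies between the values of *Trpv4* (-0.03) and *Trpv2* (0.69, from pool 1 alone and from signals below the flag, or 0.25 with ratios of exactly 1 kept). With no residual degree of freedom of its own, the *Trpv2* p counted for the liver rests on the spread of other probes.

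The study used cut-offs of a fold of 1.5 or more, or of 0.75 or less, in matching dyes on both arrays, and a P threshold of 0.01. It does not say on which arrays the P had to hold. With P below 0.01 on each array of a pair, 0 of the 7 genes were selected in any tissue. The share of all features was 0.0207% for the small intestine, 0.0161% for the spleen, 0.0207% for liver pool 1 and 0.0392% for liver pool 2. With no P threshold, *Trpc6* was selected as up in the spleen (0.397% of features) and *Trpv6* as up in liver pool 1 (0.408%). *Trpv6* missed the cut-off in pool 2 because array 2 had a fold of 1.18.

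**Figure D5:**
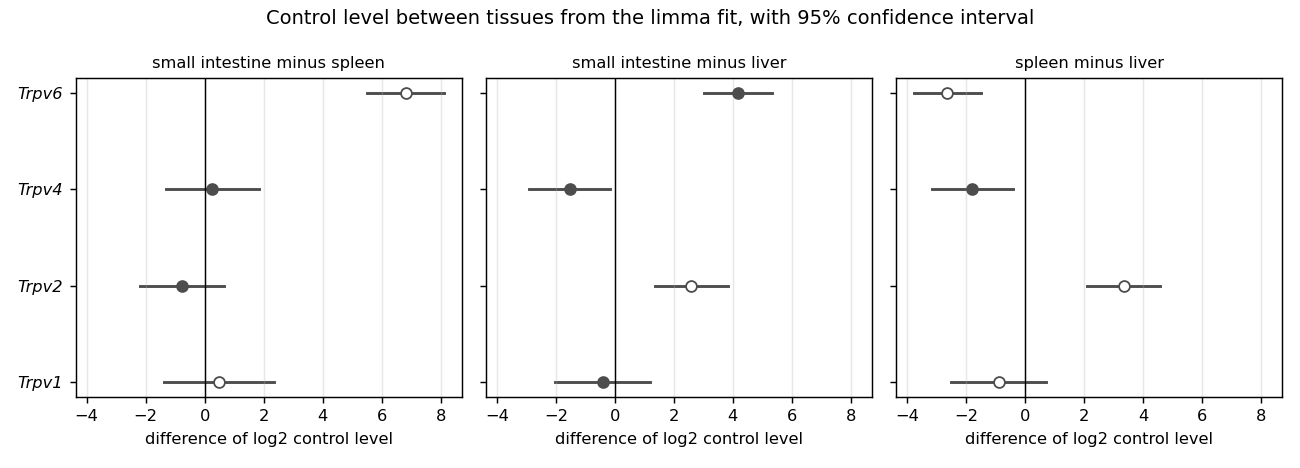
Difference of the log2 control level between tissues for the 4 genes that entered the limma fit, with 95% confidence intervals. Open points have a tissue without a control channel well above background, and their fold is not an exact size. *Trpv6* is higher in the small intestine by a fitted 6.81 over the spleen and by 4.17 over the liver, and *Trpv2* is lowest in the liver. For *Trpv6* in the liver, 2 of 4 control channels were well above background.

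For the control level, 1 of the 4 genes was called between small intestine and spleen (11.9% of all probes), 2 between small intestine and liver (22.1%) and 2 between spleen and liver (32.7%). By the array barcodes each slide held 1 tissue, so that slide and tissue cannot be told apart in these levels, while LO and control shared every array. Among 10751 probes with a gene name, the 16 channel values of *Trpv6* ran closest to those of *Txnrd1* (Pearson's r = 0.971), *Limk2* (0.969) and *Rab1a* (0.968). *Trpv4* ran closest to *Tuba3a* (0.993), *Krt1* (0.993) and *Sspo* (0.992), and *Trpv2* to *Srsf3* (0.986), *Firrm* (0.985) and *Pdgfrl* (0.984). The 16 values come from 3 tissues and share arrays, and 34, 173 and 267 probes had r above 0.95 with *Trpv6*, *Trpv4* and *Trpv2*.

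Of 21 other TRP channel genes, 9 could be named on the array, and 5 entered the fit in each tissue, though not the same set in all. None was called for LO in any tissue, and at an unadjusted p below 0.05 the only one was a probe of *Trpm1* in the liver, which was not well above background in any liver channel. *Trpc1*, a subunit of receptor-operated channels, had log2 LO/control of 0.03 for the small intestine and -0.09 for the spleen. *Trpc4*, a channel of the same subfamily, had 0.23 in the small intestine, and *Mcoln3*, an endolysosomal channel, -0.10 in the spleen. *Trpm2*, opened by ADP-ribose, was the only one above background in every liver channel, at 0.11.

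The Gq and phospholipase C pathway, which opens several TRP channels through diacylglycerol and store release, was well measured, with 14 genes above background in every channel of the small intestine, 12 for the spleen and 8 for the liver. Of its 19 probes 0 were called for LO in any tissue, and their median log2 LO/control was -0.08 for the small intestine, -0.0045 for the spleen and -0.03 for the liver. The largest values among probes well above background were those of *Plcb2*, a phospholipase C (0.22 in the small intestine), *Gnaq*, the Gq subunit (-0.18 there), *Itpr2*, an inositol trisphosphate receptor (0.14 in the spleen and -0.11 in the liver, against -0.04 and 0.05 by another probe), *Itpr3*, another such receptor (-0.12 in the spleen, and -0.0045 there by its other probe), and *Plcb1* (0.10 in the liver). At an unadjusted p below 0.05 the count was 1, a probe of *Itpr2* in the small intestine (-0.34) that was well above background in 3 of 4 channels, while the other probes of *Itpr2* gave -0.10 and -0.08 there.

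Genes that sensory neurons use with TRP channels were 12 of 13 on the array, with 0 called for LO. *Scn10a*, a sodium channel of nociceptors, had log2 LO/control of 0.13 for the small intestine and 0.14 for the spleen, and *Bdkrb1*, a bradykinin receptor, 0.12 for the small intestine and -0.05 for the liver. *F2rl1*, a protease-activated receptor, had -0.07 in the spleen. At an unadjusted p below 0.05 there were 4 values of *P2rx3* and *Ret* probes, none well above background throughout its tissue and in no common direction, against 3.44% (small intestine), 3.78% (spleen) and 6.79% (liver) of all probes. For *Ret* they were -0.34 in the small intestine (2 of 4 channels well above background) and 0.24 in the liver (0 of 8 channels), while another *Ret* probe, above background in every small intestine channel, gave 0.0031 there. For *P2rx3* they were -0.52 in the small intestine (3 of 4 channels) and 0.32 in the spleen (1 of 4 channels), and in either tissue the other *P2rx3* probe had the opposite sign (0.09 and -0.26).

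Genes of intestinal calcium absorption that work with *Trpv6* were 7 of 8 on the array. *S100g* was higher in the small intestine than in the spleen by 13.00 and than in the liver by 11.12 on the log2 scale (adjusted p = 0.0029 and 0.00058 in limma). *Vdr*, the vitamin D receptor, was well above background in 4 of 4 channels of the small intestine, in 0 of 4 of the spleen and in 0 of 8 of the liver. Of the 13 probes of this list 0 were called for LO. *Calb1*, a calcium-binding protein, had log2 LO/control of 0.27 for the small intestine, 0.08 for the spleen and -0.12 for the liver by 1 probe, and of -0.03, -0.10 and -0.08 by another, so that its probes disagreed in sign outside the liver. *Vdr* had -0.18 for the small intestine, and *Atp2b1*, the plasma membrane calcium pump, 0.08 and 0.02 for the spleen by its 2 probes. *S100g* in the spleen was higher by 0.41 at an unadjusted p of 0.045 in limma, where 3.78% of all spleen probes tested were below 0.05. It was well above background in 3 of 4 channels there, at a log2 control level of 4.36 against 17.35 in the small intestine.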

How the data were processed

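RNA pooled by treatment was hybridized to 8 whole-genome rat arrays with Cy3 and Cy5, and samples were grouped by tissue, liver pool and dye orientation from the deposited annotation. The authors processed the scans with Agilent Feature Extraction 11.0.1.1 (per the submitters' processing notes). They deposited log10 Cy5/Cy3 ratios after background subtraction and LOWESS within the array, with a p-value for each ratio from the error model of 1 array. Also deposited were the intensity of each channel after background subtraction and dye normalization, in which the software puts a small positive value for dim signals, and the median spot and background intensities. Ratios of exactly 1 stand only at features without a channel well above background. The deposited series table of log10 ratios differed from the scanner files only at such features.

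Ratios were turned to log2 LO/control, outlier-flagged features were left out, and copies of a probe were averaged. A probe printed in copies was well above background in a channel when more than 50% of its copies were. The dye-swap arrays of a pair were averaged, and the 4 pair means were fitted with limma 3.58.1 (R 4.3.3), 1 coefficient per tissue, over the 30619 of 41012 probes with a channel well above background on at least 2 arrays. Ratios of exactly 1 were missing. The only residual degree of freedom (1) lies between the liver pools, and the lone pairs of the small intestine and spleen were assumed to vary like them. A probe with a missing liver pool had none, and its error came from the other probes. Control levels were log2 processed signals after Aquantile normalization, fitted in the same way. Benjamini-Hochberg adjusted p-values below 0.05 were called. Folds against a tissue not well above background were computed against the lowest signal among probes well above background on each array. The dim probe's own signal was used where it was higher. Such folds are bounds only where the other tissue was well above background on every array. The cut-offs of the study's methods were applied to features. The fits were tested on simulated data of 30619 probes with 200 changed by a log2 value of 2. Of these, 194 were recovered among 211 called for LO in the small intestine. For the level of small intestine minus liver, 163 were recovered among 175 called. The simulated variances were more alike across probes than those of the data, and no pair was missing. Smaller changes were not simulated. Python 3.11.15 with numpy 2.4.6, pandas 2.3.3 and matplotlib 3.10.9 served for the tables and plots.

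Replicate numbers stand for dye orientation. Deviations of same-numbered arrays correlated at 0.67 on average (lowest 0.61 over 26774 probes), and this orientation cancels in the pair mean. The number of arrays limits the precision. Named genes are the 7 channel genes, the genes of each pathway list with an adjusted p below 0.05 or else the 2 with the largest absolute log2 LO/control among probes well above background throughout the tissue, and the 3 genes most correlated with each channel gene that was well above background in every channel of a tissue. Genes named at an unadjusted p below 0.05 were chosen after their values were seen. Members and lists were chosen with earlier results of these data known. Symbols came from RefSeq identifiers, which named 10759 of 41012 probes. Alternatives were the arrays unaveraged, the replicate block, each replicate left out, ratios of exactly 1 kept, other filters, normexp with an offset of 50 and loess, the series table, an intensity trend, and other scalings. The normexp alternative used median spot and background intensities where mean signals had been planned. A fit without the filter, for *Trpc6*, *Trpm8* and *Trpa1*, was chosen after seeing the data. Sequences of the channels are not used here. A gene that the rule for named genes names in the liver is not reported here.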

Additional observations from a re-analysis of the deposited data

How the results depend on the processing

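Pooled RNA and 1 residual degree of freedom between liver pools limit every p-value, and 3 of the 7 genes were too dim for a fit. Of the LO values of single genes under the alternatives, 110 kept their direction and side of the threshold, 10 changed sign and 1 newly passed it. As no probe was called for LO in the main fit, keeping the side of the threshold says little. With the replicate block on the 8 unaveraged arrays, *Trpv6* in the liver was 0.81 (SE 0.14, adjusted p = 0.68 in limma), and no call of LO changed with the block. With normexp and loess, *Trpv6* in the liver passed the threshold (0.24, adjusted p = 0.037 in limma). The share of all probes that passed under this setting is not given here. The same setting turned the sign of *Trpv1* to 0.061 in the intestine and 0.0046 in the liver. With replicate 1 or 2 left out, the sign turned as follows. In the small intestine the values ranged from -0.22 to 0.029 for *Trpv4*, from -0.043 to 0.090 for *Trpv2*, from -0.21 to 0.14 for *Trpv1* and from -0.016 to 0.10 for *Trpv6*. For the spleen they ranged from -0.18 to 0.31 for *Trpv1* and from -0.63 to 0.17 for *Trpv6*. For the liver they ranged from -0.16 to 0.10 for *Trpv4* and from -0.86 to 0.71 for *Trpv1*. The level of *Trpv1* in small intestine minus liver ranged from -1.003 to 0.19. The cause was not tested.

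By the cut-offs, 1 gene was selected in the spleen and 1 in liver pool 1 with no P threshold. With 1 array left out, the counts ranged from 0 to 1 in the spleen and in both liver pools taken singly. With the positive and significant flag in place of the stricter one, 6 genes were above background for the small intestine, 4 for the spleen and 2 for the liver. The share of all probes under that weaker flag is not given here, so these counts have nothing to be set against. By the stricter flag, 4 genes were above background for the liver when 1 channel sufficed. For control levels, the LO channels called 1 gene between small intestine and liver. The shares of all probes called under the alternatives for control levels are not given here. With 1 replicate left out, the genes called ranged from 0 to 1 between small intestine and spleen, from 1 to 2 between small intestine and liver and from 1 to 2 between spleen and liver. Of the level values, 4 newly passed and 5 no longer passed the threshold under some alternative. The 4 were the higher liver level of *Trpv4* against both other tissues, with normexp (-0.86 and -1.05) and with median centring (-1.42 and -1.65). The 5 were *Trpv2* in small intestine minus liver, in the LO channels, with normexp (0.48, adjusted p = 0.13) and without replicate 2, and *Trpv6* against the spleen without replicate 2. The direction of each called level difference was kept under the alternatives run.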
